A study of Homo sapiens with 8 samples.

Results

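Described here are 9 genes of the epidermal growth factor (EGF) signalling family in a human lung fibroblast line. They are the ligand genes AREG, EREG, HBEGF, TGFA, EPGN and NRG1 and the receptor genes EGFR, ERBB2 and ERBB3. The members were chosen by family, and all 9 were found by symbol among the 54628 genes counted. Of these, 7 passed the filter on low counts and were tested among 17155 genes, while TGFA and EPGN did not pass and are described by their counts.

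Ligands of this family are made as precursors that sit in the cell membrane and are released by metalloproteinases of the ADAM family. A bound ligand lets receptors of the ERBB family join in pairs and start the RAS-ERK and phosphoinositide 3-kinase pathways. EGFR binds AREG, EREG, HBEGF, TGFA and EPGN, ERBB3 binds NRG1, and ERBB2, which has no known ligand, acts as the partner of the others. In fibroblasts EGFR drives proliferation, and some of these ligands are among the factors that senescent cells secrete.

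Messenger RNA was sequenced from IMR90-hTERT cells, lung fibroblasts kept dividing by telomerase and grown in low oxygen, which in all groups carried the pinducer20 vector for N-terminally Flag-tagged YAP5SA. YAP5SA is an active form of YAP, the coactivator that Hippo kinases restrain, and doxycycline switches it on. The 4 groups of 2 libraries each were proliferating cells, proliferating cells with doxycycline (1 ug/ml for 11 days), senescent cells assessed 9 days after bleomycin (10 ug/ml for 24 h), and senescent cells with both agents. The 11 days of doxycycline are longer than the 9 days after bleomycin, so doxycycline began before bleomycin ended. A rise or fall with doxycycline in senescent cells is thus a difference between groups, not a change in cells already senescent. A lower level there can equally be read as a smaller rise with bleomycin. Bleomycin breaks DNA. No cells without the vector received doxycycline, so drug and transgene cannot be told apart, and no label says that replicates were separate cultures, so p-values measure only the spread between these libraries.

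Libraries held 33627708 to 39692162 counts, and a level in CPM is a gene's count scaled to 1e6 counts per library, with TMM factors. YAP1 stood at 197 ± 1.69 CPM (SD, n = 2) in proliferating cells and 214 ± 34.0 CPM with doxycycline, and at 207 ± 23.4 and 289 ± 2.83 CPM in senescent cells without and with it. This count sums the cells' own transcripts and any transgene reads. With doxycycline its log2 change was 0.12 in proliferating cells (adjusted p = 0.431, quasi-likelihood test of edgeR). In senescent cells it was 0.48 (adjusted p = 0.00140, same test). Of 8 known YAP target genes, 6 rose with doxycycline in proliferating cells and 7 in senescent cells. Of all tested genes 12.6 and 22.6% were called higher there (adjusted p below 0.05). With bleomycin alone 4 of the 8 rose and 2 fell. The list was chosen with earlier results of these data known. AREG, also a known target, is outside it and did not rise with doxycycline. ANKRD1, a widely used target among the 8, went from 3.38 to 272 CPM with doxycycline in proliferating cells. In senescent cells it went from 83.1 to 837 CPM. All 8 fibroblast markers examined were present, with a summed level from 20452 to 36551 CPM per library. The 8 epithelial markers summed to 0.802 to 3.72 CPM.

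The promoters of HBEGF, AREG and EREG are shown because these ligand genes, whose products share EGFR, responded differently to the same treatments. Of the 9 members, 7 have promoter entries in the RefSeq table (GRCh38.p14). Each line gives the 250 bases before the annotated start, 5′ to 3′ on the strand of the gene, with motif matches in capitals.
EREG: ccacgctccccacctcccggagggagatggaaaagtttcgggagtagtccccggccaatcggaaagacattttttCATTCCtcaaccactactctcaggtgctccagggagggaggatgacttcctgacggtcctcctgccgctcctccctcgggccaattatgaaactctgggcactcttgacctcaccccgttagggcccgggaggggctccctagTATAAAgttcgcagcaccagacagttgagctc
AREG: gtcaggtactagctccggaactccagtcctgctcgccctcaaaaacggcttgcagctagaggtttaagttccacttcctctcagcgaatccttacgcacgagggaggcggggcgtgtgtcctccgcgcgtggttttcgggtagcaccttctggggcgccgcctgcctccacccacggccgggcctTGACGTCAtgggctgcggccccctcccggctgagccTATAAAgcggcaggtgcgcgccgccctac
HBEGF: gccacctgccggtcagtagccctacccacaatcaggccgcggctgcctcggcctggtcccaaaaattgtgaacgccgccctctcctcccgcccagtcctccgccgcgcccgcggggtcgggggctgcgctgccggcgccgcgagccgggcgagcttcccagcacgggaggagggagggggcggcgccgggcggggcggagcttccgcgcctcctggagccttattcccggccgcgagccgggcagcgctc
The windows are chr4:74364895-74365144 (plus strand), chr4:74444886-74445135 (plus strand) and chr5:140346604-140346853 (minus strand). Searched on both strands were the TEAD motif GGAATG, the AP-1 motif TGANTCA, the cAMP response element TGACGTCA and the TATA box TATAAA.

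The EREG window held the TEAD letters 175 bases before the start, on the other strand, and a TATA box at 32 bases. The AREG window held the cAMP response element at 65 bases and a TATA box at 29 bases. In the HBEGF window, where 76.4% of bases are G or C, the letters of the 4 motifs do not occur. Among 35116 windows of this length the TEAD letters occur in 11.9%, the AP-1 letters in 6.57%, the cAMP response element in 1.65% and the TATA letters in 10.7%. A match here is a description of the letters and no evidence of binding.

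The first comparison sets proliferating cells with doxycycline, which induces YAP5SA, against those without it. Of the 7 tested genes 4 were called, all higher: HBEGF, NRG1, ERBB3 and EREG. Of all tested genes 23.0% were called there, 12.6% higher and 10.4% lower. In senescent cells 5 of 7 were called with doxycycline. HBEGF, NRG1 and ERBB3 were higher, and AREG and EGFR were lower. The share of all genes there was 46.3%, with 22.6% higher and 23.8% lower.

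Bleomycin without doxycycline compares senescent with proliferating cells, and 6 of the 7 genes were called. All 4 tested ligand genes and EGFR were higher and ERBB3 was lower. Of all genes 59.2% were called, 29.8% higher and 29.4% lower, so a call in this comparison is common. Bleomycin with doxycycline called 6 of 7, all higher, against 55.5% of all genes, 26.8% higher and 28.7% lower. The interaction, which tests whether the doxycycline change differs between the states, called 6 of 7, with ERBB3 more positive in senescent cells and 5 genes more negative. It called 19.9% of all genes, 8.08% more positive and 11.8% more negative. The median log2 changes of the 7 genes in the 5 comparisons, in this order, were 0.60, -0.16, 1.25, 0.68 and -0.72, against 0.000729, -0.00382, 0.0139, -0.00647 and -0.0319 over all tested genes.

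**Figure D1:**
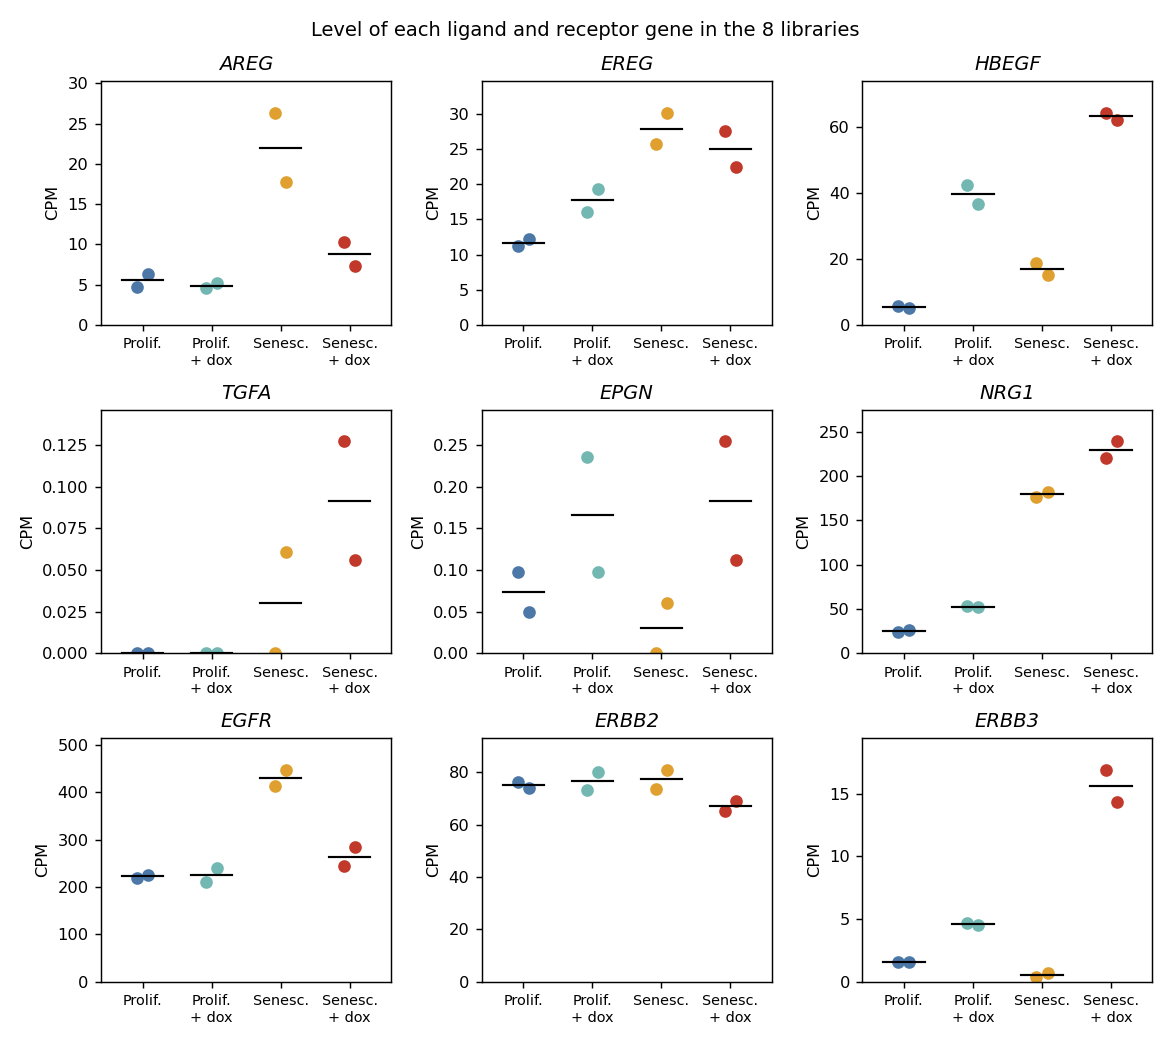
Level of each of the 9 genes in CPM (y axis, from 0) in the 4 groups, with 1 point per library and a bar at the group mean (n = 2). HBEGF is highest in the groups with doxycycline, AREG and EGFR are highest in senescent cells without it (means 22.0 and 430 CPM), and ERBB3 stands at 14.3 and 16.9 CPM in senescent cells with doxycycline.

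HBEGF encodes heparin-binding EGF-like growth factor, which also signals from its membrane-bound form. The gene lies at chromosome 5, 140332843 to 140346603 (hg38, minus strand). It stood at 5.76 and 5.11 CPM in the proliferating libraries, at 42.3 and 36.7 CPM with doxycycline, at 18.8 and 15.1 CPM in senescent libraries and at 64.1 and 62.1 CPM in senescent libraries with doxycycline. Both groups with doxycycline were above both groups without it, and no groups overlapped. HBEGF rose 7.25-fold with doxycycline in proliferating cells (log2 change 2.86, SE 0.12, adjusted p = 1.51e-10, quasi-likelihood test of edgeR, adjusted after Benjamini and Hochberg). The rise in senescent cells was 3.72-fold (log2 change 1.90, SE 0.11, adjusted p = 2.62e-09). It also rose with bleomycin, by log2 changes of 1.64 without doxycycline and 0.68 with it (adjusted p = 1.78e-08 and 5.12e-05). These comparisons share libraries in pairs and are not independent of each other. Because RNA came from whole cultures, more cells with the transcript and more transcript per cell cannot be told apart.

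AREG encodes amphiregulin, a ligand of EGFR and a known YAP target gene. It lies at chromosome 4, 74445136 to 74455005 (plus strand). Proliferating libraries had 4.76 and 6.34 CPM without doxycycline and 4.62 and 5.15 CPM with it, and these groups overlapped. Senescent libraries had 26.4 and 17.7 CPM without doxycycline and 10.3 and 7.33 CPM with it. AREG was thus highest in senescent cells without doxycycline, where its 2 libraries also lay furthest apart. It rose 3.97-fold with bleomycin alone (log2 change 1.99, SE 0.23, adjusted p = 4.15e-05). With doxycycline it was 2.49-fold lower in senescent cells (log2 change -1.32, SE 0.22, adjusted p = 0.000946), a comparison that uses the same senescent libraries. In proliferating cells the log2 change was -0.18 (SE 0.24, adjusted p = 0.657). The summed level of the 6 leukocyte markers moved alike, at 68.8 and 72.3, 52.3 and 54.8, 123.9 and 169.3, and 64.0 and 64.9 CPM in the libraries of the 4 groups. That sum is nearly all CD68, a lysosomal gene that fibroblasts express too (53.1 to 146.0 CPM in the group means), while PTPRC, which marks leukocytes, was at most 0.202 CPM.

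AREG with doxycycline was 1.81-fold higher in senescent than in proliferating cells (log2 change 0.85, SE 0.24, adjusted p = 0.0124). This call was lost without the first or second proliferating library with doxycycline (adjusted p = 0.103 and 0.0671) or the first senescent library with doxycycline (adjusted p = 0.0748).

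EREG encodes epiregulin, a further EGFR ligand, and lies next to AREG at chromosome 4, 74365145 to 74388749 (plus strand). Its levels were 11.2 and 12.2 CPM in proliferating libraries and 16.1 and 19.4 CPM with doxycycline. They were 25.7 and 30.2 CPM in senescent libraries and 27.6 and 22.5 CPM in those with doxycycline, so the senescent groups overlapped and were both above the proliferating groups. EREG rose 1.52-fold with doxycycline in proliferating cells (log2 change 0.60, SE 0.13, adjusted p = 0.00288). The change in senescent cells did not pass (log2 change -0.16, SE 0.12, adjusted p = 0.307). With bleomycin EREG rose 2.39-fold without doxycycline (adjusted p = 4.98e-07) and 1.41-fold with it (adjusted p = 0.00305). The last call was lost without the first senescent library with doxycycline (adjusted p = 0.0648).

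NRG1 encodes neuregulin 1, the ligand of ERBB3 and ERBB4, and lies at chromosome 8, 31639245 to 32774046 (plus strand). It had 24.2 and 26.3 CPM in proliferating libraries, 52.8 and 52.5 CPM with doxycycline, 176.8 and 182.2 CPM in senescent libraries and 220.4 and 239.3 CPM with doxycycline. The replicates lay close together and the 4 groups did not overlap. NRG1 rose 7.11-fold with bleomycin alone (log2 change 2.83, SE 0.08, adjusted p = 4.17e-13) and 4.37-fold in cells with doxycycline (adjusted p = 7.16e-12). The rise with doxycycline was 2.09-fold in proliferating cells (adjusted p = 1.51e-07) and 1.28-fold in senescent cells (log2 change 0.36, SE 0.08, adjusted p = 0.00140).

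TGFA, which encodes transforming growth factor alpha, and EPGN, which encodes epigen, were near the detection limit. TGFA had 9 counts in all 8 libraries together: 0 and 2 in the senescent libraries, 5 and 2 in those with doxycycline and 0 in the 4 proliferating libraries. A count of 0 over a group allows up to 0.0371 CPM in proliferating cells and 0.0399 CPM in those with doxycycline (3 counts, counting error only). EPGN had 34 counts, with 4 and 2 in proliferating libraries, 8 and 4 with doxycycline, 0 and 2 in senescent libraries and 10 and 4 with doxycycline. In senescent cells the ratio of its counts with to without doxycycline was 6.40 (95% interval 1.47 to 58.0 from counting error alone). With no filter on low counts the edgeR test did not call it (adjusted p = 0.0984). Both ligands were thus far below AREG, EREG and HBEGF in all groups.

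EGFR, the receptor of these ligands, lies at chromosome 7, 55019017 to 55211628 (plus strand). It stood at 218.6 and 225.8 CPM in proliferating libraries, 210.2 and 239.6 CPM with doxycycline, 412.8 and 447.3 CPM in senescent libraries and 244.3 and 283.3 CPM in senescent libraries with doxycycline. As with AREG, senescent libraries without doxycycline stood above all others. EGFR rose 1.94-fold with bleomycin alone (log2 change 0.95, SE 0.09, adjusted p = 3.64e-07). With doxycycline it was 1.63-fold lower in senescent cells (log2 change -0.71, SE 0.09, adjusted p = 1.88e-05), again against the same senescent libraries. With doxycycline in both states the bleomycin change was 1.17-fold (log2 change 0.23, adjusted p = 0.0480). That call was lost in 8 of 18 alternative settings, with an adjusted p up to 0.394, and leaving out single libraries gave log2 changes from 0.12 to 0.34. In proliferating cells the log2 change with doxycycline was 0.02 (95% interval -0.18 to 0.22, adjusted p = 0.922).

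ERBB2, the receptor without a known ligand, lies at chromosome 17, 39688094 to 39728658 (plus strand). Its mean was 75.1 ± 1.76 CPM in proliferating cells, 76.7 ± 4.76 CPM with doxycycline, 77.2 ± 5.25 CPM in the senescent group and 67.2 ± 2.79 CPM when this had received doxycycline (SD, n = 2). No comparison passed the test, and the adjusted p ran from 0.0550 to 0.832. The intervals bound the size: the log2 change with doxycycline was between -0.14 and 0.20 in proliferating cells and between -0.37 and -0.03 in senescent cells (95%, before adjustment for the number of genes). The ERBB2 locus overlaps MIEN1, a coding gene with 11388 counts in all libraries, and reads of the pair may be mixed, as the sources used here do not give the strand setting of the counting. EGFR overlaps EGFR-AS1 (598 counts) and EREG overlaps LOC105377276 (432 counts). AREG, HBEGF and ERBB3 overlap no annotated gene.

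ERBB3, the neuregulin receptor whose own kinase is weak, lies at chromosome 12, 56080108 to 56103505 (plus strand). It had 1.56 and 1.58 CPM in proliferating libraries, 4.65 and 4.49 CPM with doxycycline, 0.364 and 0.730 CPM in senescent libraries and 16.9 and 14.3 CPM in senescent libraries with doxycycline. The groups did not overlap, and the senescent group without doxycycline rests on 13 and 24 counts. ERBB3 rose 28.7-fold with doxycycline in senescent cells (log2 change 4.84, SE 0.24, adjusted p = 3.53e-10). The rise in proliferating cells was 2.91-fold (log2 change 1.54, SE 0.20, adjusted p = 4.79e-05). With bleomycin it moved in opposite directions. It fell 2.89-fold without doxycycline (log2 change -1.53, SE 0.26, adjusted p = 0.000124) and rose 3.42-fold with it (log2 change 1.77, SE 0.18, adjusted p = 7.04e-07).

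ERBB3 is best known from epithelial cells, so the epithelial markers were read beside it. All 8 were below 1 CPM on average in 3 groups, and in senescent cells with doxycycline 6 were. Their summed level was 0.802 to 1.00 CPM in proliferating libraries, 1.32 to 1.55 CPM with doxycycline, 1.58 CPM in the second senescent library, the lower of its group, and 3.50 to 3.72 CPM with doxycycline. There CDH1 (E-cadherin) stood at 1.09 CPM and KRT14 (a basal keratin) at 1.02 CPM, and EPCAM at 0.0534 CPM. CLDN4 stood at 0.992 CPM there and already at 0.852 CPM in proliferating cells. ELF3 went the other way, from 0.663 CPM in senescent cells to 0.331 CPM with doxycycline. SOX10, a gene of glial cells, had no counts in any library. Of the other lists, the endothelial sum was nearly all TEK and the melanocyte sum nearly all MITF, and TYR had no counts. The fibroblast markers summed to 21252 and 25944 CPM in the same libraries, against 34178 and 36551 CPM in senescent libraries without doxycycline. The part of other cell types in the ERBB3 change was not tested.

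**Figure D2:**
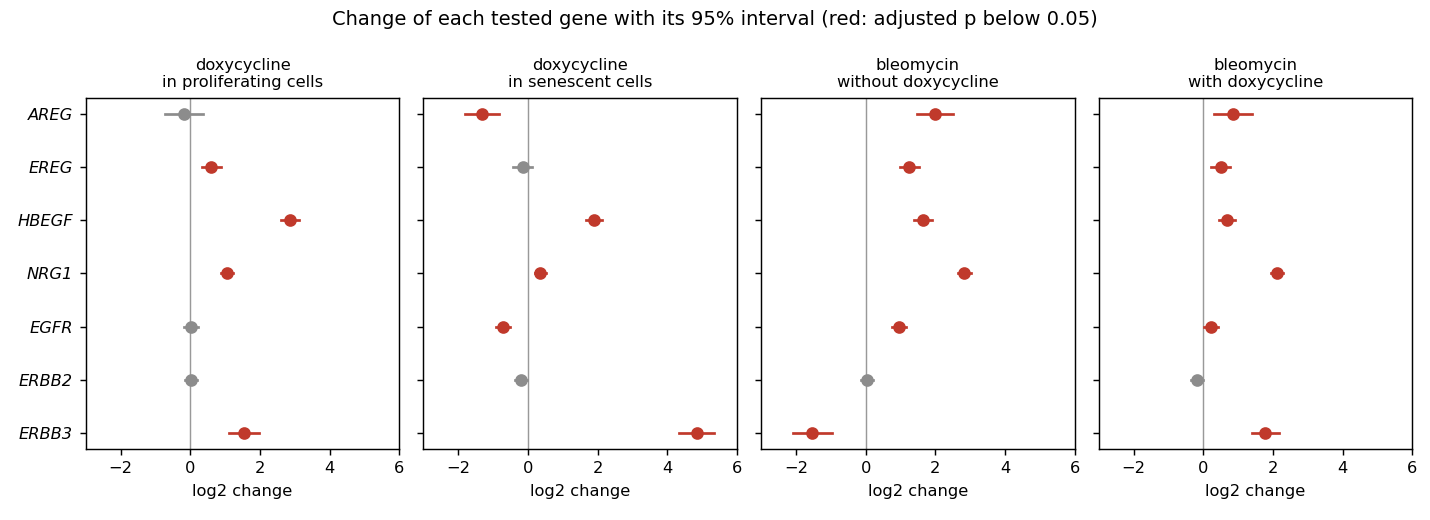
Fitted log2 change of each of the 7 tested genes (x axis) in the 4 pairwise comparisons, with 95% intervals, in red where the adjusted p was below 0.05. ERBB3 spans the widest range, from -1.53 with bleomycin alone to 4.84 with doxycycline in senescent cells, and the intervals of ERBB2 stay near 0.

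The doxycycline change differed between senescent and proliferating cells in 6 of the 7 genes. For ERBB3 the senescent change was larger by 3.30 on the log2 scale (SE 0.32, adjusted p = 5.60e-06). For HBEGF and NRG1, which rose in both states, it was smaller by a log2 difference of -0.96 and -0.70 (adjusted p = 0.000755 and 0.000475). EREG and EGFR had log2 differences of -0.76 and -0.72 (adjusted p = 0.00713 and 0.00137). AREG had -1.14 (SE 0.33, adjusted p = 0.0381), and this call was lost in 7 of 17 alternative settings, among them total counts as the only scaling (log2 difference -0.95, adjusted p = 0.0641). ERBB2 did not pass (log2 difference -0.23, adjusted p = 0.176).

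To compare levels between genes, CPM was divided by the length of each gene's exons in kilobases (GENCODE 29). In proliferating cells EGFR led with 17.7 CPM per kb, followed by ERBB2 at 7.27, AREG at 3.37, NRG1 at 2.23, EREG at 2.05, HBEGF at 1.80 and ERBB3 at 0.174 CPM per kb. NRG1 and EREG overlapped between libraries. With doxycycline HBEGF moved to the second place at 13.1 CPM per kb, and EREG and AREG overlapped at 3.10 and 2.96 CPM per kb. In senescent cells EGFR stood at 34.3 CPM per kb, above NRG1 at 15.8 and AREG at 13.4 CPM per kb, which overlapped. HBEGF and EREG also overlapped there, at 5.62 and 4.89 CPM per kb.

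In senescent cells with doxycycline EGFR, HBEGF and NRG1 were not separated, with 21.1 ± 2.20, 20.9 ± 0.481 and 20.3 ± 1.18 CPM per kb (SD, n = 2). ERBB2 followed at 6.51 CPM per kb, AREG at 5.35 and EREG at 4.38 CPM per kb, the last 2 with overlapping libraries. ERBB3 reached 1.73 CPM per kb and remained the lowest of the 7. With the longest coding transcript as the length, NRG1 led that group at 38.8 CPM per kb, ahead of EGFR at 26.9 and HBEGF at 26.5 CPM per kb.

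**Figure D3:**
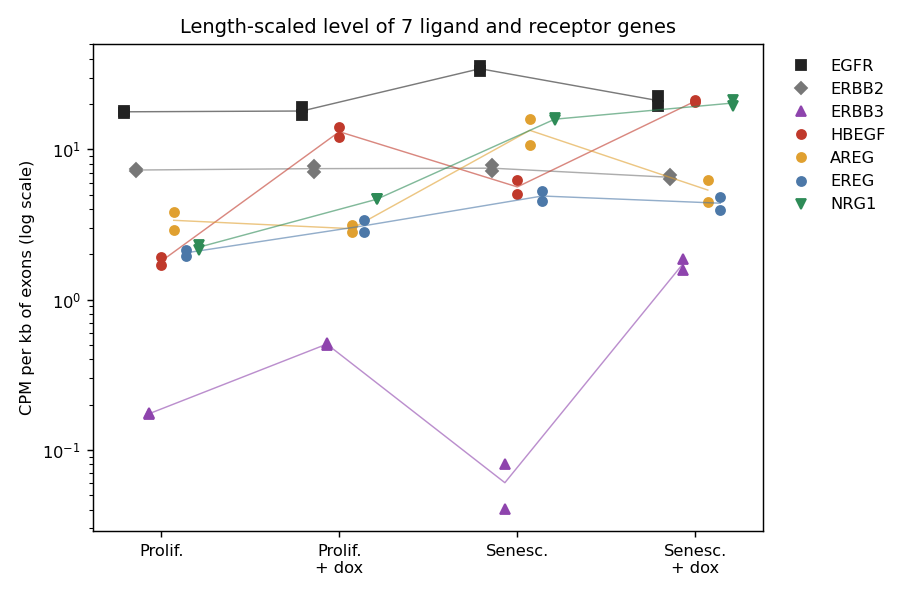
CPM per kb of exons (y axis, log scale) of the 7 tested genes in each library, with 1 point per library and a line through the group means (n = 2) as a guide between groups that are not a series. EGFR has the highest mean in all 4 groups, 17.7 to 34.3 CPM per kb, though it overlaps HBEGF and NRG1 in senescent cells with doxycycline, and ERBB3 is lowest throughout.

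The 5 EGFR ligand genes among the members were summed as a set, without EGF and BTC. The sum was 7.26 ± 0.630 CPM per kb in proliferating cells and 19.2 ± 0.739 CPM per kb with doxycycline. It was 23.9 ± 3.99 CPM per kb in the senescent group and 30.8 ± 2.46 CPM per kb when this had received doxycycline (SD, n = 2). The make-up differed as well. HBEGF made up 25.0 ± 4.27% of the sum in proliferating cells and 23.5 ± 0.318% in senescent cells, but 67.9 ± 4.25% and 68.1 ± 3.89% in the same states with doxycycline. AREG made up 46.2 ± 5.33% and 55.4 ± 6.30% without doxycycline and 15.4 ± 1.77% and 17.3 ± 2.78% with it. EREG was between 14.2 and 28.2% of the sum in the group means. These are shares of transcripts and not of released protein.

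**Figure D4:**
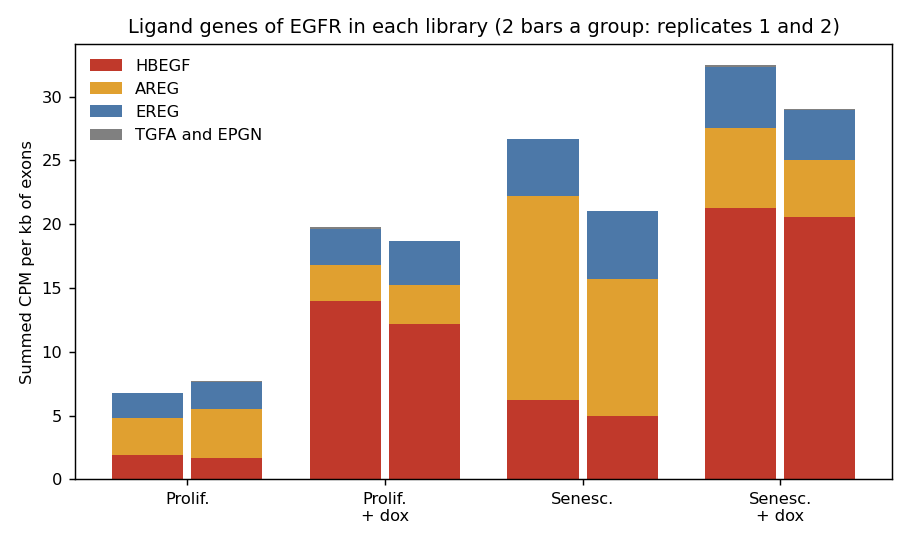
Summed CPM per kb of exons (y axis, from 0) of the EGFR ligand genes among the members, stacked by gene, with 1 bar per library in the 4 groups. AREG is the largest part in the 4 libraries without doxycycline and HBEGF in the 4 with it, while TGFA and EPGN together are under 1% of the sum.

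Receptor proportions followed from the same values. EGFR over ERBB2, per kb, was 2.44 ± 0.114 in proliferating cells, 2.42 ± 0.0739 with doxycycline, 4.59 ± 0.0518 in the senescent group and 3.23 ± 0.204 when it had received doxycycline (SD, n = 2). ERBB2 over ERBB3 went from 41.9 ± 1.29 and 14.7 ± 1.27 in proliferating cells without and with doxycycline to 137 ± 56.4 and 3.80 ± 0.602 in senescent cells. The ratio of 137 rests on the few ERBB3 counts named above. The size of these ratios depends on the length used. With the longest coding transcript, EGFR and ERBB2 stood at 22.6 and 15.7 CPM per kb in proliferating cells. In senescent cells without doxycycline they stood at 43.8 and 16.1 CPM per kb.

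Over the 8 libraries, the log2 level of AREG was most like that of EGFR among the members (Pearson r = 0.916), and EREG was most like NRG1 (r = 0.936). HBEGF was most like ERBB3 (r = 0.704), and r between HBEGF and AREG was 0.0318. Each member was also compared with 10641 named protein-coding genes whose log2 CPM averaged at least 1. Among these HBEGF was closest to SERPINB7 (a serpin), EFEMP1 (fibulin-3) and CDA (cytidine deaminase), with r from 0.995 to 0.998. AREG was closest to DYRK1B, TBK1 and MYD88 (r = 0.990 to 0.993), of which TBK1 is a kinase and MYD88 an adaptor of innate immune signalling. EREG was closest to TAF13, CUL5 and COQ8A, NRG1 to FAM219A, ATP6V0A1 and CFAP251, EGFR to GOLM2, EPRS1 and OPA3, ERBB2 to EIF4G1, PPIP5K2 and AP2B1, and ERBB3 to SGPP1, YAF2 and CYRIB. These libraries are 4 groups with 2 replicates, so each r mainly describes the order of 4 group means.

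Of the ligand genes outside the members, NRG4, a ligand of ERBB4, was the one with a call: 10.9 and 10.6 CPM in proliferating libraries, 11.8 and 12.1 CPM with doxycycline, 14.0 and 16.8 CPM in senescent libraries and 22.2 and 19.3 CPM with doxycycline. It rose with bleomycin, 1.43-fold without and 1.74-fold with doxycycline (adjusted p = 0.00112 and 2.22e-05). In senescent cells it rose 1.35-fold with doxycycline (adjusted p = 0.00520), a call that was lost without the first senescent library or the first with doxycycline. EGF itself was at 0.224 to 0.377 CPM and was not called in any comparison. BTC had 1 count in all libraries, NRG2 had 7 and NRG3 had 8. ERBB4, the fourth receptor, had 10 counts.

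Of 10 sheddases and regulators tested, 7 rose and 1 fell with bleomycin alone, with a median log2 change of 0.58, against 29.8% of all genes higher and 29.4% lower. With doxycycline in senescent cells 6 of the 10 fell (median -0.32), against 23.8% of all genes, while in proliferating cells 1 rose. Scaled by total counts alone, 4 fell in senescent cells and the median was -0.15. ADAM17, the main sheddase of AREG, EREG and HBEGF, rose 1.41-fold with bleomycin alone, from 42.1 ± 0.377 to 59.6 ± 0.859 CPM (adjusted p = 3.81e-05). RHBDF2, which carries ADAM17 to the cell surface, went from 4.59 ± 0.347 to 23.7 ± 2.40 CPM (5.16-fold, adjusted p = 7.66e-10). With doxycycline in senescent cells it was lower (log2 change -0.49, adjusted p = 0.00457, edgeR test), a call lost with total counts alone. RHBDF1, its more abundant relative in the list, went from 67.9 ± 0.130 to 69.5 ± 1.79 CPM with bleomycin alone. It was not called there (log2 change 0.03, adjusted p = 0.711, edgeR test). ADAM12 rose 22.7-fold with bleomycin alone, from 0.456 ± 0.149 CPM (23 and 14 counts) to 10.4 ± 0.404 CPM (adjusted p = 3.34e-09). It was 3.39-fold lower with doxycycline in senescent cells (adjusted p = 2.61e-05). ADAM8 fell 4.73-fold with bleomycin alone, from 1.88 ± 0.245 to 0.396 ± 0.0848 CPM (adjusted p = 1.86e-05). The lower level rests on 12 and 15 counts.

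TIMP3, counted in that list, does the reverse of the sheddases, as it inhibits ADAM17. It was the most abundant gene of the list and rose 8.53-fold with bleomycin alone, from 962 ± 5.76 to 8208 ± 644 CPM (adjusted p = 1.15e-12). With doxycycline in senescent cells it fell 1.82-fold to 4502 ± 147 CPM (adjusted p = 2.63e-06). TIMP3 lies within the span of SYN3, so part of its count may be uncertain.

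Of 10 adaptors at the receptors, 7 rose with bleomycin alone and 5 fell with doxycycline in senescent cells, against 29.8% of all genes higher and 23.8% lower in these comparisons. Scaled by total counts alone, 2 fell and 1 rose in the latter comparison and the median log2 change went from -0.15 to 0.01. The count of 5 also dropped to 3 without either proliferating library without doxycycline or the second senescent library with it, and to 2 without the second senescent library or the first with doxycycline. PIK3R1, the regulatory subunit of phosphoinositide 3-kinase, rose 1.71-fold with bleomycin alone (adjusted p = 7.40e-06), SOS1, an activator of RAS, 1.63-fold (adjusted p = 1.07e-05), the phosphatase PTPN11 1.54-fold (adjusted p = 2.57e-05) and PLCG1, a phospholipase, 1.46-fold (adjusted p = 2.56e-05).

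The RAS-ERK core was mixed. Of 10 genes tested, 4 rose and 3 fell with bleomycin alone, against 29.8% of all genes higher and 29.4% lower. With doxycycline in senescent cells 2 rose and 1 fell, against 22.6% of all genes higher and 23.8% lower. The one that fell with doxycycline in senescent cells was MAPK3, which encodes ERK1 (log2 change -0.32, adjusted p = 0.00514). Its fall was not called with total counts alone, or without the first senescent library or the first with doxycycline. KSR1, a scaffold of the cascade, rose 2.43-fold with bleomycin alone, BRAF 1.65-fold and MAPK3 1.63-fold (adjusted p = 1.46e-05, 6.79e-06 and 2.93e-06). NRAS fell by 1.07 on the log2 scale (adjusted p = 5.74e-09). Scaled by total counts alone, 3 were higher and 5 lower with bleomycin alone, and 4 were higher with doxycycline in senescent cells.

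Among 11 tested genes that restrain or internalise the receptors, 5 rose and 2 fell with bleomycin alone, and 4 rose and 3 fell with doxycycline in senescent cells, where 2 rose without the second senescent library with doxycycline. In each, 7 of 11 were called, against 59.2 and 46.3% of all genes. ERRFI1, an inhibitor that binds the EGFR kinase, moved with the state. It stood at 232 ± 19.2 CPM in proliferating cells, 157 ± 9.60 CPM with doxycycline, 659 ± 57.3 CPM in the senescent group and 1194 ± 87.7 CPM when this had received doxycycline. It fell 1.48-fold with doxycycline in proliferating cells and rose 1.81-fold in senescent cells, and the difference passed the test (log2 difference 1.42, SE 0.14, adjusted p = 6.07e-06). LRIG1, which lowers the amount of ERBB receptors, rose 3.20-fold with bleomycin alone and fell 2.05-fold with doxycycline in senescent cells (adjusted p = 1.60e-10 and 9.77e-08). LRIG3, its relative, fell with doxycycline in both states (2.05-fold and 1.98-fold, adjusted p = 2.21e-06 and 2.44e-06). CBLB, a ubiquitin ligase, rose 2.67-fold with bleomycin alone (adjusted p = 4.62e-08). RNF41, the ubiquitin ligase that acts on ERBB3, went from 42.2 to 68.2 CPM with doxycycline in proliferating cells and from 71.2 to 97.8 CPM in senescent cells (adjusted p = 7.06e-06 and 0.000132).

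**Figure D5:**
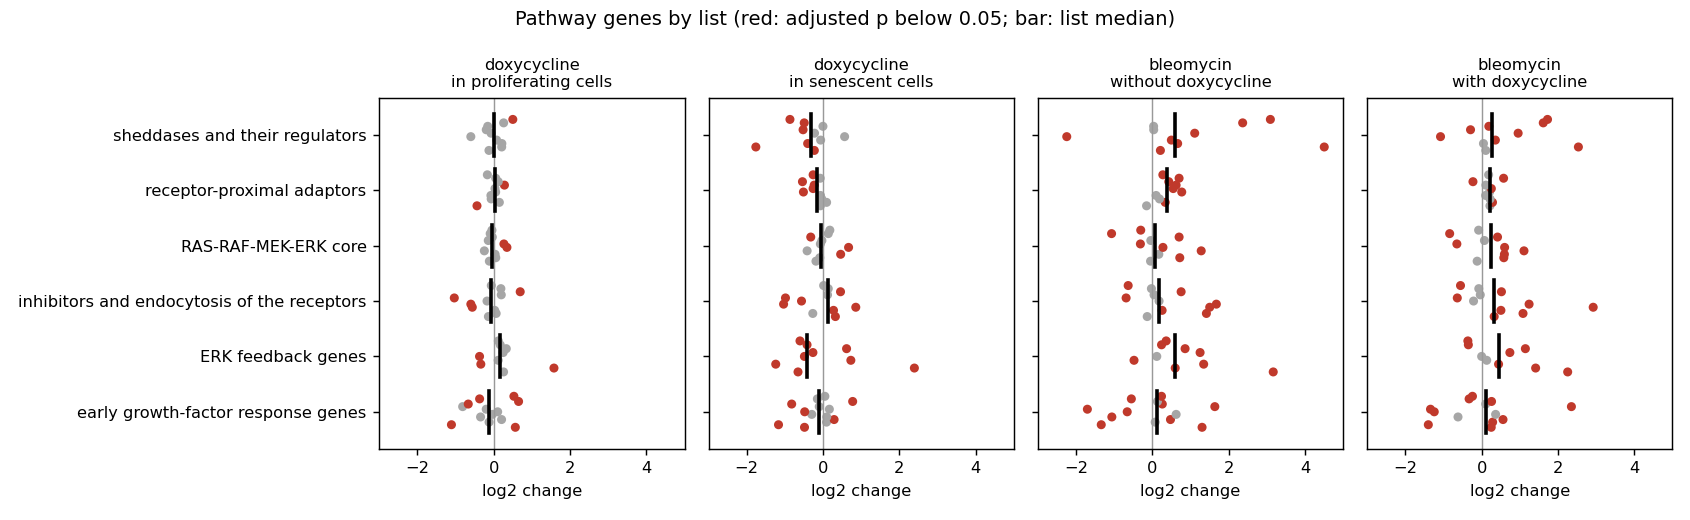
Log2 change (x axis) of each tested gene of 6 pathway lists in the 4 pairwise comparisons, in red where the adjusted p was below 0.05, with a bar at the list median. The medians of the sheddase and ERK feedback lists are 0.58 and 0.60 with bleomycin alone and -0.32 and -0.42 with doxycycline in senescent cells.

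ERK feedback genes encode phosphatases and Sprouty-type inhibitors that ERK activity is known to induce. All 9 were tested, and with bleomycin alone 7 rose and 1 fell (median log2 change 0.60). Of all genes 59.2% were called there, 29.8% higher and 29.4% lower. With doxycycline in senescent cells 3 rose and 6 fell (median -0.42), against 46.3% of all genes called, 22.6% higher and 23.8% lower. Of these falls, that of SPRED3 (log2 change -0.26) was lost in 12 of 18 alternative settings, with log2 changes from -0.33 to -0.09. That of DUSP4 (log2 change -0.66) was lost in 1 of 18, with log2 changes from -0.80 to -0.48. DUSP6, a phosphatase of ERK, stood at 52.4 ± 0.485 and 41.5 ± 0.284 CPM in proliferating cells without and with doxycycline and at 133 ± 13.9 and 56.4 ± 7.36 CPM in senescent cells. It rose 2.54-fold with bleomycin alone and fell 2.36-fold with doxycycline in senescent cells (adjusted p = 8.52e-09 and 5.97e-08). DUSP4 rose 8.99-fold with bleomycin alone to 7.80 ± 0.102 CPM, and SPRED3 2.38-fold (adjusted p = 2.91e-09 and 4.94e-08). DUSP5, a nuclear phosphatase of ERK, did otherwise: it rose with doxycycline in both states, 2.98-fold in proliferating and 5.25-fold in senescent cells (adjusted p = 3.61e-09 and 2.66e-11), to 152 ± 16.9 and 404.5 ± 9.19 CPM.

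Genes of the early response to growth factors did not share a direction. Of 13 tested, 5 rose and 5 fell with bleomycin alone, and with doxycycline 3 rose and 3 fell in proliferating cells and 2 rose and 4 fell in senescent cells. The shares of all genes called in these comparisons were 59.2, 23.0 and 46.3%. The 5 that rose with bleomycin alone became 2 or 3 without either proliferating library, the first senescent library or either senescent library with doxycycline. The 2 that rose in senescent cells became 1 without the first senescent library with doxycycline. EGR1, a transcription factor, stood at 98.8 ± 4.89, 45.8 ± 4.19, 39.1 ± 7.98 and 17.4 ± 0.315 CPM in proliferating cells, proliferating cells with doxycycline, senescent cells and senescent cells with doxycycline. It fell in all 4 pairwise comparisons (2.16-fold to 2.63-fold, adjusted p at most 6.02e-06). IER2 fell 3.25-fold with bleomycin alone (adjusted p = 1.70e-09). IER3, of the major histocompatibility region, rose 3.11-fold with bleomycin alone to 0.735 ± 0.308 CPM (adjusted p = 0.00873) and was low in all groups, and this call was lost without the first proliferating or the first senescent library and with the description number as replicate block. CCND1, the gene of cyclin D1, rose 2.47-fold with bleomycin alone (adjusted p = 8.80e-09). With doxycycline it rose 1.48-fold in proliferating cells and was lower by a log2 change of -0.49 in senescent cells (adjusted p = 0.000348 and 0.000497).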

How the data were processed

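RNA sequencing of 8 libraries was analysed from the raw gene counts that the authors deposited. Total RNA was extracted with acid phenol and made into libraries with a TruSeq Stranded mRNA kit, per the labels. The submitters' processing notes list Trimmomatic (0.36), HISAT2 (2.1.0), featureCounts (1.6.3) and the build hg38. How these were set, with which annotation and whether strand was used, was not given in the sources used here.

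Libraries were grouped by their labels. Genes passing filterByExpr (minimum count 10) were scaled by TMM in edgeR 4.0.16 (R 4.3.3) and fitted with robust quasi-likelihood models over 4 groups, with 4 residual degrees of freedom. The 5 contrasts were tested two-sided, and a gene was called at a Benjamini-Hochberg adjusted p under 0.05 over all 17155 genes tested. Fold and log2 changes and SE are those of the fit. The test was tried on simulated data first. Bounds at 0 counts use 3 counts over the group, and intervals of count ratios are 95% exact intervals of counting error. Counts of replicates differed by more than sampling noise (chi-square per degree of freedom 3.44 to 17.8).

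Members and 9 gene lists (80 genes, all found, 73 tested) were chosen with earlier results of these data known. All members are named, with up to 4 called genes of the largest change per list. The 3 protein-coding genes most like each member and genes within 500 kb of AREG are named too. Further list genes are named where a list is described. No label says that the replicate number pairs libraries, so no block was used. The description number is the one in the sample descriptions, which differs from the title number. It does not run alike in all groups: proliferating cells without doxycycline carry other numbers than the rest. Libraries with the same title number had residual correlations from -0.0121 to 0.159. Alternatives were DESeq2 1.42.0 and its size factors, total counts, limma-voom (3.58.1), other filters, only the libraries compared, replicate blocks, no robust estimation and each library left out. Plots used matplotlib 3.10.9.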

Additional observations from a re-analysis of the deposited data

Results flagged for a closer look

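The doxycycline change differed between senescent and proliferating cells, by a test of the difference itself (the edgeR interaction term), in 6 genes of the family. In log2 units, senescent minus proliferating, the difference was 3.30 for ERBB3, whose changes were 4.84 and 1.54. It was -1.14 for AREG, whose changes were -1.32 in senescent and -0.18 in proliferating cells. For EREG the difference was -0.76, from changes of -0.16 and 0.60. For HBEGF it was -0.96, and for NRG1 it was -0.70, both of which rose in each state. EGFR had -0.72, from changes of -0.71 and 0.02. Of all tested genes 19.9% were called in this comparison.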

How the results depend on the processing

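Of 35 member changes tested 27 were called, and 23 of these kept direction and call under all alternatives run. The other 4, all named in the report, lost the call under some and reversed under none. Changes that were not called turned in sign as follows: EGFR with doxycycline in proliferating cells was -0.00110 with DESeq2 size factors in edgeR, -0.00106 with DESeq2 and -0.0802 to 0.109 with single libraries left out. In that comparison such left-out fits gave -0.374 to 0.0391 for AREG and -0.0342 to 0.0925 for ERBB2. ERBB2 with bleomycin alone ran from -0.0305 to 0.108 without single libraries and was -0.135 with total counts as the only scaling, where EREG with doxycycline in senescent cells was 0.0123. ERBB2 with doxycycline in senescent cells and with bleomycin under doxycycline was called in 6 of 18 alternatives each. With total counts the median of all genes moved by 0.17 (doxycycline in senescent cells), -0.18 (bleomycin alone) and 0.18 (interaction), and the share of calls that were higher went from 48.7 to 69.3%, from 50.3 to 37.1% and from 40.7 to 70.5%. The title number as replicate block gave AREG an interaction of -1.13 (adjusted p = 0.0544), and the description number as replicate block lowered the genes called with doxycycline in proliferating cells from 3938 to 2353. Leaving out single libraries gave 2029 to 4166 there, and 1851 to 3879 for the interaction (3407 with all libraries), with the lowest values without a proliferating library. The members called ranged from 4 to 7 of 7 for bleomycin with doxycycline and by at most 1 in the other comparisons. A fit that leaves out a library assumes that the lone sample of its group varies like the others. A level per kb with lengths from the deposited file was not run, since it holds none, and transcript lengths were used after seeing the data. Low counts limit TGFA, EPGN and, in senescent cells without doxycycline, ERBB3.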

Other observations

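AREG, EREG and EPGN lie together on chromosome 4, near a cluster of CXC chemokine genes. Of 22 genes within 500 kb of the AREG start, 9 were tested. With bleomycin alone 6 rose and 2 fell, and with doxycycline in senescent cells 1 rose and 5 fell. Of all genes 59.2 and 46.3% were called in these comparisons. The window is centred on AREG, and AREG and EREG are 2 of the 6 that rose. The 5 that fell were AREG, CXCL2, CXCL3, CXCL5 and PARM1, of which CXCL5 and PARM1 had 39 and 48 counts in all libraries. CXCL3, CXCL5 and PARM1 stood at 1.88, 0.439 and 0.481 CPM in senescent cells without doxycycline. Elsewhere they were at most 0.290, 0.0941 and 0.135 CPM. They passed the filter mainly through the group where they were high, which favours a rise with bleomycin and a fall with doxycycline. The counts of rises and falls are thus no result about this neighbourhood. CXCL2, a neutrophil chemokine 348 kb before AREG, went from 0.295 CPM in proliferating to 4.03 CPM in senescent cells and to 1.07 CPM with doxycycline (adjusted p = 6.00e-07 and 0.000252, edgeR quasi-likelihood test). CXCL3, its neighbour, went from 0.0498 to 1.88 and to 0.290 CPM (adjusted p = 1.24e-06 and 0.000133). CXCL2 and CXCL3 are close paralogs, so reads may be divided between them uncertainly. MTHFD2L, an enzyme of folate metabolism between CXCL2 and EPGN, went the other way, from 5.79 to 2.79 and to 5.17 CPM (adjusted p = 2.77e-05 and 0.000265). The second of each pair of comparisons uses the same senescent libraries as the first. BTC, the betacellulin gene 299.6 kb after AREG, had 1 count.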
